A study of Mus musculus with 30 samples.

Results

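The 10 genes described here are genes of the circadian clock in mouse cells, with Dbp as an output of it. They are Arntl, Clock, Per1, Per2, Per3, Cry1, Cry2, Nr1d1, Nr1d2 and Dbp, taken by gene name from a deposited table of RNA sequencing. The cells were 3T3-L1, murine fibroblasts that turn into adipocytes in a differentiation medium. For each gene the FPKM of its named transcripts (fragments per kilobase of transcript, corrected for sequencing depth) were summed. The 10 genes are 10 of 62266 gene rows, and all 10 reached 1 FPKM in at least 5 of the 30 libraries, as did 18035 rows in all. The study compared cultures given quizalofop-p-ethyl (QpE), a herbicide, at 50 µM with controls at 6 h, 24 h and 12 days, with 5 culture replicates in each of the 6 groups. All 6 groups, controls included, were differentiated in a medium with fetal bovine serum, 500 µM of the phosphodiesterase inhibitor IBMX and 100 nM insulin, and QpE was started when that medium was refreshed after 2 days. All libraries came from 1 cell line used at low passage. The labels give the last time as 12 days, while the protocol names 6 further days of medium changes after the start of QpE; the label is used here. The labels do not state the time of day of harvest.

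The circadian clock is a transcriptional loop that runs in single cells. Its activators, ARNTL (also called BMAL1) and CLOCK, bind as a pair to E-boxes and switch on the Per and Cry genes, whose proteins return to the nucleus and repress the pair. A second loop holds Nr1d1 and Nr1d2, which encode the nuclear receptors REV-ERB alpha and beta; E-boxes switch them on, and the proteins repress Arntl at elements shared with the ROR receptors. Dbp encodes a transcription factor that is switched on through E-boxes and acts on D-box elements, so its RNA is often read as an output of the clock. In cultured cells a change of serum, cyclic AMP or glucocorticoids can reset the loop, and in fat tissue the clock genes cycle over the day.

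Start-site windows from RefSeq (build GRCm38.p6, 300 bases that span the annotated start and lie mostly before it) were found for 9 of the 10 genes, in 13 windows. Of the genes, Per2 was not matched. The windows were searched on both strands for 5 motifs. The E-box CACGTG was in the windows of Cry1 and Per1, against 7.15% of all 32851 windows, and its variant CACGTT in those of Cry1, Cry2 and Nr1d1, against 4.68%. The D-box TTATGTAA was in that of Per3 at 2 positions, against 0.938% of windows, and the core of the ROR and REV-ERB element TAGGTNA in those of Arntl, against 8.29%. The cyclic AMP element TGACGTCA, in 1.79% of windows, matched none of the 13. The windows of Dbp, Nr1d2 and Clock, and the other window of Per1, held none of the 5 motifs. A match says only that the letters are there. Sequences are given for 5 of the windows with a match. Cry1 and Per1 stand for the repressors, Nr1d1 and Arntl for the second loop, and Per3 for the D-box. Capitals mark the motif matches, on either strand, and each window is printed on the strand of its gene. They lie at chr10:85185005-85185304, minus strand (Cry1), chr11:69098699-69098998, plus strand (Per1), chr11:98775328-98775627, minus strand (Nr1d1), chr7:113207261-113207560, plus strand (Arntl), and chr4:151044616-151044915, minus strand (Per3).
Cry1: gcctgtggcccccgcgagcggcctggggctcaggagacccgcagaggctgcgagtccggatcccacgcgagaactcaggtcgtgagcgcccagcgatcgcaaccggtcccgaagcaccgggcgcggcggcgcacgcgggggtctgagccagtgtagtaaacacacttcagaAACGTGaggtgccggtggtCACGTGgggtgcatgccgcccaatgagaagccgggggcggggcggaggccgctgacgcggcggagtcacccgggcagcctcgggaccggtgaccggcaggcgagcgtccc
Per1: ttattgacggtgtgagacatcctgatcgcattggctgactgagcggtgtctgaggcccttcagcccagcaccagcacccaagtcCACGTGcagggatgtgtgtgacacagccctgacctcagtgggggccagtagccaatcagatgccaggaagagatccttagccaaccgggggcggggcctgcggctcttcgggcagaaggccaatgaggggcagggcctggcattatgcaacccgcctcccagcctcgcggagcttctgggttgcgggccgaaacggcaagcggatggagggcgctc
Nr1d1: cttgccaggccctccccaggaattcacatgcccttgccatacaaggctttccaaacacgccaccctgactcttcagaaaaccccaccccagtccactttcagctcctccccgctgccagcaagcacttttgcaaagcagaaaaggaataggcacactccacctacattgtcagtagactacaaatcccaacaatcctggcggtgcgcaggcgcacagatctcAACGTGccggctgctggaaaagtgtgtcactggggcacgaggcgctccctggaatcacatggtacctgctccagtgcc
Arntl: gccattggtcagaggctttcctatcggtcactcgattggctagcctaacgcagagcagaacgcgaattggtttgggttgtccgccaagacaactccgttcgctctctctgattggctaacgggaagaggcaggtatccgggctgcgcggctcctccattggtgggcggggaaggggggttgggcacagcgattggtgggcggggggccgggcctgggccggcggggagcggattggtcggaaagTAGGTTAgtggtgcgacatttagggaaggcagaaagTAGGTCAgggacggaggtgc
Per3: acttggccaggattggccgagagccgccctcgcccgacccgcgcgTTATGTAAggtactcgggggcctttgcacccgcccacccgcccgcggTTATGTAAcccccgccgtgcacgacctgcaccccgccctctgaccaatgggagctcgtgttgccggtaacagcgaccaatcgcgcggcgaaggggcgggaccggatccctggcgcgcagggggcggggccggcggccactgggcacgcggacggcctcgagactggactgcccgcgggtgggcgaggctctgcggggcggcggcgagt

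Relative to the annotated start, the E-box of Cry1 began at -60 and its CACGTT variant, on the other strand, at -79. That of Nr1d1, also on the other strand, was at -28, and the E-box of Per1 at -166. In Arntl the 2 matches began at -6 and at 30 bases after the start, and in Per3 the 2 D-boxes began at -205 and -158.

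The deposited FPKM summed to 413502 to 500489 per library, and the smallest steps between values gave an estimate of 9500000 to 17500000 fragments per library. Of 9 adipocyte markers, 8 reached 1 FPKM in every group, and Lep did not. Their summed FPKM was 188 to 810 at 6 h and 24 h, 1163 to 5395 in controls at 12 days and 3332 to 8547 under QpE at 12 days. The 6 fibroblast markers summed to 2975 to 4169 FPKM in the controls at 12 days and 260 to 2528 under QpE. Summed markers of macrophages stayed at or below 5.35 FPKM, of endothelium at or below 0.623 and of epithelium at or below 1.36 in every library, and Epcam was listed at 0 in every library. The 3 skeletal muscle markers summed to 0.448 to 2.65 FPKM at 6 h and 24 h, 4.64 to 9.56 in controls at 12 days and 8.76 to 18.4 under QpE at 12 days, with Myod1 and Myog listed at 0 in every library, so that the sum is Des, an intermediate filament gene. In such bulk RNA, fewer cells of a type and less RNA per cell cannot be told apart.

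None of the 10 genes passed the test for QpE at 6 h or at 24 h. The test was limma on log2(FPKM + 1), with p-values adjusted over all 18035 rows by the Benjamini-Hochberg method; a gene passed at an adjusted p under 0.05, and 0 of 10 did at either time. Of all rows, 0.00554% passed at 6 h and 0.0166% at 24 h. Without adjustment, Nr1d1 and Per2 had p under 0.05 at 6 h, as did 596 of all 18035 rows. At 24 h Per3 did, as did 1291 of all rows. No other tool was run. At 12 days 1 of 10 passed, Cry1, which was higher, where 4.86% of all rows passed (2.13% higher and 2.73% lower). An unadjusted p under 0.05 was reached there by 4 of 10 (Arntl, Clock, Cry1 and Per3) and by 3852 of all 18035 rows.

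More of the clock genes passed between times than between QpE and control, and the same was true of all rows. From 6 h to 24 h, Dbp, Nr1d1 and Nr1d2 rose and Cry1 fell in the controls, 4 of 10 against 12.4% of all rows (5.62% higher, 6.79% lower). The same genes passed in the same directions under QpE, and Per2 fell as well, 5 of 10 against 12.8% (6.58% higher, 6.25% lower). From 24 h to 12 days, Cry1 and Cry2 rose in the controls, 2 of 10 against 20.5% of rows (8.11% higher, 12.3% lower), and Clock, Cry1 and Cry2 rose under QpE, 3 of 10 against 29.3% (11.8% higher, 17.5% lower). The counts from 24 h to 12 days were close to the share of all rows that passed in either direction. The 2 comparisons of each arm share their 24 h libraries. Whether the time course differed between arms was tested by an interaction: 0 of 10 genes passed, for 24 h against 6 h (0.0% of all rows) and for 12 days against 24 h (0.0277%). Without adjustment, Per2 in the first and Cry1 in the second had p under 0.05, as did 811 and 2374 of all 18035 rows.

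**Figure D1:**
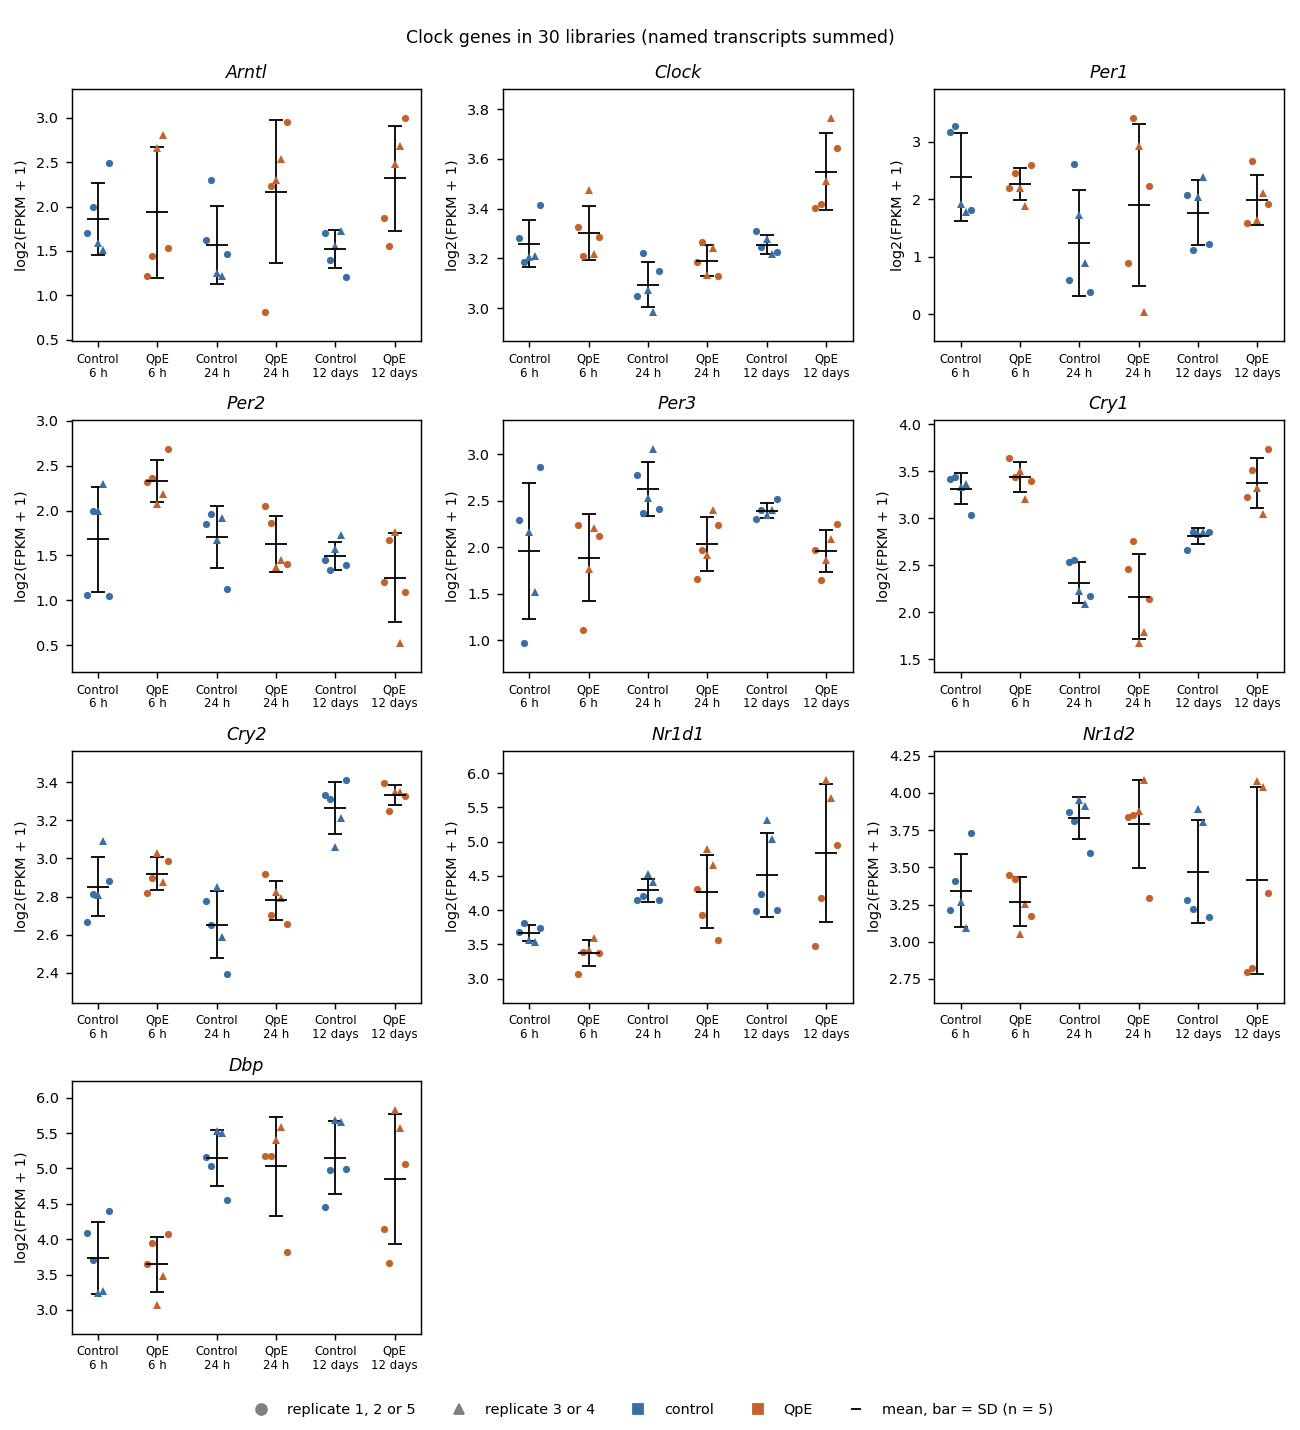
Levels of the 10 clock genes as log2(FPKM + 1), 1 panel per gene with its own scale, 1 point per library over the 6 groups, with the mean and SD (n = 5); triangles are replicates 3 and 4. Cry1 is low at 24 h in both arms, Dbp and Nr1d1 are higher at 24 h than at 6 h, and the libraries at 12 days spread widely for Nr1d1, Nr1d2 and Dbp.

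**Figure D2:**
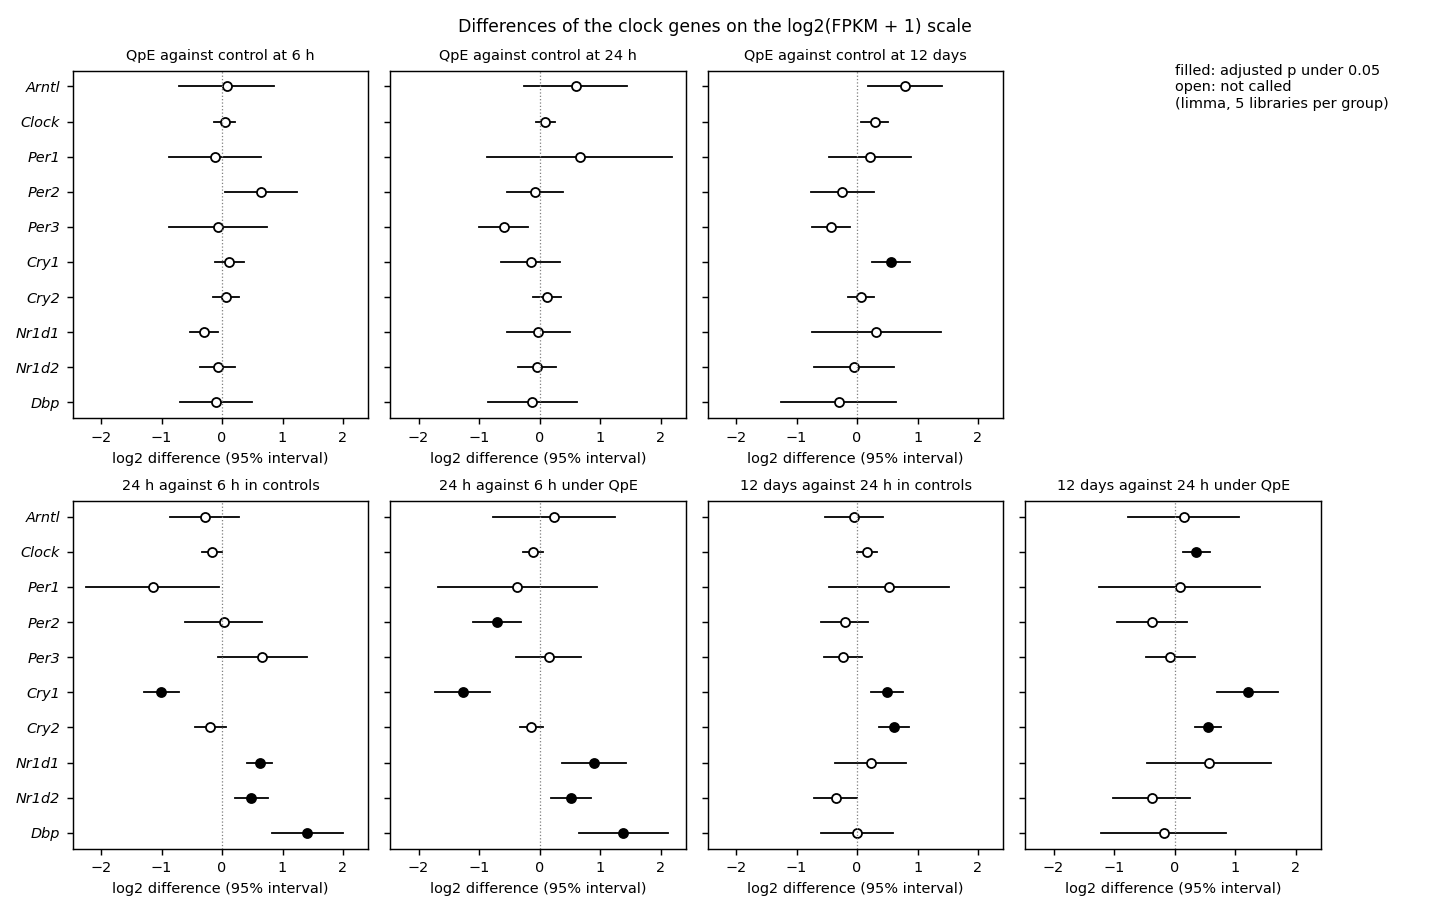
Differences on the log2(FPKM + 1) scale with 95% intervals from limma for the 10 genes in 7 comparisons; filled points have an adjusted p under 0.05. 1 point is filled in the 3 comparisons of QpE with control (Cry1 at 12 days), and 14 are filled in the 4 comparisons between times.

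Cry1, which encodes a strong repressor of the ARNTL and CLOCK pair, had the most calls of the 10 genes. At 6 h it read 9.67, 9.85, 9.07, 9.34 and 7.17 FPKM in control replicates 1 to 5, and 11.5, 9.86, 10.3, 8.23 and 9.52 under QpE. At 24 h the controls read 4.801, 4.88, 3.67, 3.25 and 3.51 and the QpE cultures 4.51, 5.75, 2.20, 2.46 and 3.41. Every library at 24 h was thus below every library at 6 h, in both arms, as was so in either direction for 13.1% of all rows in controls and 13.6% under QpE. The fall from 6 h to 24 h was -1.003 ± 0.13 (log2 difference ± SE, adjusted p = 0.00157) in controls and -1.27 ± 0.21 (adjusted p = 0.00403) under QpE. Both calls held in all 20 alternatives tried for each.

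At 12 days the controls read 5.34, 6.22, 6.13, 6.22 and 6.21 FPKM of Cry1 and the QpE cultures 8.34, 10.4, 9.04, 7.29 and 12.4. The groups did not overlap, which held for 10.4% of all rows. The difference was 0.56 ± 0.14 (adjusted p = 0.0495), a 1.48-fold higher value of FPKM + 1. The call was close to the threshold and ended in 16 of 22 alternatives, whose adjusted p ran from 0.00842 to 0.341 over all 22 while the difference stayed between 0.35 and 0.71. Leaving out any 1 control, or QpE replicate 1, 2, 3 or 5, ended it (adjusted p from 0.0448 to 0.099 over the 10 such fits). Within replicates 1, 2 and 5 the difference was 0.70 (adjusted p = 0.125) and within replicates 3 and 4 it was 0.35 (adjusted p = 0.341). With replicates 3 and 4 alone 0 of all 18035 rows passed, so the loss there is not particular to Cry1. The adipocyte, fibroblast and Des values given above moved with this comparison, and their part in the result was not tested.

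From 24 h to 12 days Cry1 rose by 0.50 ± 0.12 in controls (adjusted p = 0.0153) and by 1.21 ± 0.23 under QpE (adjusted p = 0.00328), and the groups were apart in both (19.2% and 24.97% of all rows). The interaction was 0.71 ± 0.26 (adjusted p = 0.221), so a larger rise under QpE did not pass. The control call was lost within replicates 1, 2 and 5 (0.37, adjusted p = 0.165) and within replicates 3 and 4 (0.69, adjusted p = 0.102), and with the replicate number as a block (adjusted p = 0.0597). Under QpE it was lost within replicates 3 and 4 (1.46, adjusted p = 0.0591). In the order of group means, Cry1 was highest at 6 h and at 12 days under QpE (9.88, 9.50 and 9.02 FPKM for QpE 6 h, QpE 12 days and control 6 h, which differed by less than 1 SD), then 6.02 in controls at 12 days, apart from both neighbours, and lowest at 24 h (4.02 and 3.67).

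Cry2, the paralogous repressor, passed between times and not between QpE and control. In controls it read 5.85, 5.29, 6.22, 5.02 and 4.26 FPKM at 24 h and 9.07, 8.92, 7.33, 8.26 and 9.66 at 12 days. Under QpE it read 6.55, 5.52, 6.07, 5.94 and 5.31 at 24 h and 9.53, 8.52, 9.18, 9.20 and 9.04 at 12 days. Each library at 12 days was above each library at 24 h in its arm. The rises were 0.61 ± 0.11 (adjusted p = 0.0038) in controls and 0.56 ± 0.10 (adjusted p = 0.00196) under QpE. Each of these calls held in 21 of 22 alternatives, and was lost with replicates 3 and 4 alone (0.41, adjusted p = 0.24, in controls; 0.54, adjusted p = 0.122, under QpE). QpE against control gave differences of 0.07, 0.13 and 0.07 at 6 h, 24 h and 12 days, with 95% intervals from -0.15 to 0.36 over the 3 times.

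Clock, the steady partner of Arntl in most tissues, had the narrowest spread of the 10 genes, with a within-group SD of 0.04 to 0.15 on the log2 scale. At 12 days it read 8.91, 8.48, 8.69, 8.31 and 8.37 FPKM in controls and 9.58, 9.70, 10.4, 12.6 and 11.5 under QpE. The groups did not overlap, as for 10.4% of all rows, but the difference of 0.29 ± 0.10 did not pass (adjusted p = 0.117). It passed when the spread was estimated over all 30 libraries (adjusted p = 0.00657) and in that fit with the replicate block (0.01), and over the 22 alternatives the adjusted p ran from 0.00657 to 0.312. At 24 h the QpE cultures read 8.09, 8.62, 7.78, 8.46 and 7.75 FPKM. Against these, Clock rose at 12 days under QpE by 0.36 ± 0.10 (adjusted p = 0.0236). That call was lost in 7 of 22 alternatives, among them without QpE 24 h replicate 1, 3 or 5 (adjusted p up to 0.0547).

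Arntl, the partner of Clock and the gene repressed by the REV-ERB receptors, passed in no comparison on its named transcripts. It read 2.27, 1.64, 1.93, 2.31 and 1.32 FPKM in controls at 12 days and 2.66, 1.95, 4.56, 5.41 and 6.996 under QpE. The groups overlapped, and the difference was 0.80 ± 0.27 (adjusted p = 0.122). Most of the signal at this locus was in transcripts without a gene name.

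The table also holds assembled transcripts without a gene name, and their share matters for 5 of the 10 genes. Unnamed transcripts carried 59.8% of the FPKM at the Arntl locus, 58.2% at Per1, 32.0% at Per3, 23.3% at Per2 and 1.91% at Nr1d1, and none at the other 5. With them joined to the gene, 14616 rows were tested and 12.2% of them passed for QpE at 12 days. The locus sum of Arntl at 12 days was 9.59, 9.38, 9.75, 8.98 and 9.01 FPKM in controls and 12.2, 11.7, 4.95, 6.19 and 7.63 under QpE. On this sum 2 QpE cultures were above all controls and 3 below all of them, and the difference was -0.19 ± 0.21 (adjusted p = 0.61), against 0.80 on the named transcripts.

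From 24 h to 12 days in controls, the Arntl locus sum rose from 6.41 ± 1.40 to 9.34 ± 0.34 FPKM (SD, n = 5), by 0.50 ± 0.13 (adjusted p = 0.0144; 34.0% of all joined rows passed), whereas the named transcripts gave -0.05 ± 0.22 (adjusted p = 0.901). The direction for Arntl over this interval thus depended on how transcripts were assigned to genes. From 6 h to 24 h the locus sum went from 8.72 ± 1.14 to 6.41 ± 1.40 FPKM in controls and from 7.13 ± 1.14 to 5.41 ± 0.87 under QpE, and neither difference passed (adjusted p = 0.076 and 0.0674).

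Per1, a repressor gene that is also switched on early by cyclic AMP and glucocorticoid signals, depended on the transcript assignment in its calls and spread. On named transcripts it passed in no comparison, and single libraries at 24 h ran from 0.302 to 5.07 FPKM in controls and from 0.0252 to 9.63 under QpE. The named differences from 6 h to 24 h were -1.15 in controls and -0.37 under QpE, and 0.22 for QpE at 12 days. The locus sums given below had the same signs there. The locus sum had an SD of 0.509 FPKM in controls at 24 h, against 1.99 on named transcripts. It read 5.41, 5.71, 5.51, 5.30 and 4.40 FPKM in controls at 24 h and 7.28, 9.63, 7.31, 6.17 and 7.42 under QpE, with every QpE culture above every control, but the difference of 0.44 ± 0.11 did not pass (adjusted p = 0.36; 0.0% of joined rows passed, and 1.92% had groups that did not overlap). At 12 days it read 7.40, 4.99, 6.80, 6.99 and 4.67 in controls and 8.84, 11.7, 8.33, 8.11 and 12.7 under QpE. The groups were again apart, as for 14.3% of joined rows, and there the rise of 0.61 ± 0.16 passed (adjusted p = 0.0393). Between 6 h and 24 h the Per1 locus sum fell by 0.62 on the log2 scale in controls (SE 0.13, adjusted p = 0.00885; 22.5% of joined rows passed) and by 0.49 under QpE (SE 0.16, adjusted p = 0.0449; 23.8%).

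Per2, the Per gene most often followed as a clock reporter, fell under QpE between 6 h and 24 h. Its named transcripts read 3.98, 4.15, 3.20, 3.53 and 5.45 FPKM at 6 h and 3.13, 2.64, 1.58, 1.72 and 1.64 at 24 h, with no overlap. The difference was -0.70 ± 0.18 (adjusted p = 0.0302), and it was lost in 11 of 20 alternatives, 7 of them leaving out 1 library (QpE 6 h replicate 1, 2, 4 or 5, or QpE 24 h replicate 3, 4 or 5; adjusted p from 0.0201 to 0.0732). In controls the named transcripts read 1.08, 2.99, 3.00, 3.90 and 1.07 at 6 h and 2.61, 2.88, 2.18, 2.78 and 1.18 at 24 h, a difference of 0.03 ± 0.29. The interaction did not pass (-0.73 ± 0.34, adjusted p = 0.974). On the locus sums the fall was -0.53 ± 0.18 in controls (adjusted p = 0.0645) and -0.73 ± 0.19 under QpE (adjusted p = 0.0217). At 12 days the direction of Per2 between QpE and control turned with the transcripts used. The named transcripts read 1.53 to 2.32 FPKM in controls and 0.44 to 2.38 under QpE, a difference of -0.25 ± 0.23 (adjusted p = 0.592). The locus sum read 1.73, 1.53, 2.06, 2.32 and 1.63 in controls and 3.16, 2.24, 2.38, 4.46 and 3.27 under QpE. Those groups overlapped by 1 library, and the difference of 0.51 ± 0.16 did not pass (adjusted p = 0.0633).

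Per3, the Per gene least needed for the loop to run, had a lower mean under QpE on named transcripts at 24 h and at 12 days. At 12 days it read 3.96, 4.30, 4.08, 4.28 and 4.76 FPKM in controls and 2.91, 2.15, 2.65, 3.27 and 3.76 under QpE, without overlap. The difference of -0.43 ± 0.14 did not pass on named transcripts (adjusted p = 0.109). With unnamed transcripts joined it was -0.44 ± 0.13 and passed (adjusted p = 0.0467), again near the threshold. At 24 h the difference on named transcripts was -0.59 ± 0.18 (adjusted p = 0.635). On the locus sum at 24 h it was smaller, -0.21 ± 0.25 (adjusted p = 0.834), and the groups overlapped. The Per3 locus sum also fell from 24 h to 12 days, by 0.59 on the log2 scale in controls (SE 0.17, adjusted p = 0.0199) and by 0.83 under QpE (SE 0.22, adjusted p = 0.0113; 42.7% of joined rows passed); named transcripts gave -0.24 and -0.07, and passed in neither.

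**Figure D3:**
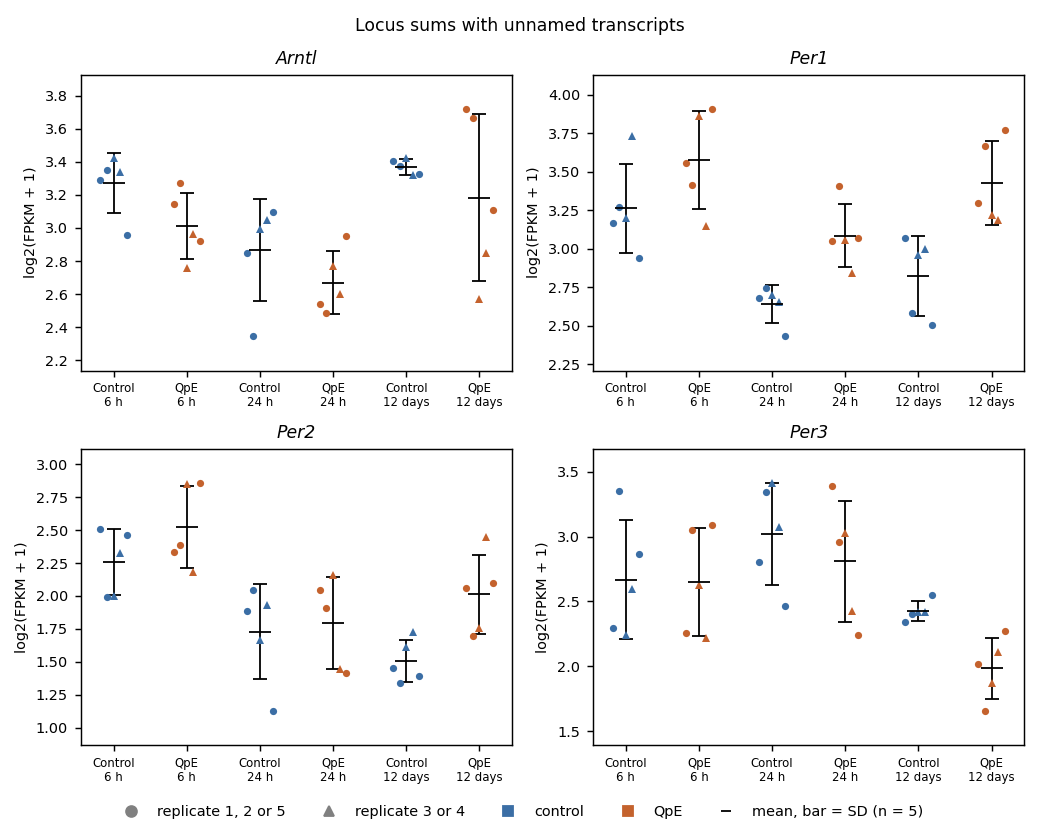
Locus sums of Arntl, Per1, Per2 and Per3 with unnamed transcripts joined, as log2(FPKM + 1), 1 point per library over the 6 groups, with the mean and SD (n = 5); triangles are replicates 3 and 4. Per1 is higher under QpE than in every control at 24 h and at 12 days, and the QpE cultures at 12 days fall on both sides of the controls for Arntl.

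Nr1d1, which encodes the repressor REV-ERB alpha and is also a known gene of adipocyte differentiation, rose from 6 h to 24 h. Controls read 11.8, 13.1, 10.9, 10.6 and 12.4 FPKM at 6 h and 16.7, 17.5, 22.1, 20.3 and 16.8 at 24 h, with no overlap. QpE cultures read 7.42, 9.46, 9.70, 11.1 and 9.43 at 6 h and 18.9, 14.2, 28.6, 24.2 and 10.9 at 24 h, where replicate 5 fell within the 6 h range. The rises were 0.62 ± 0.09 (adjusted p = 0.00344) and 0.90 ± 0.23 (adjusted p = 0.0329), and the interaction was 0.28 ± 0.26 (adjusted p = 0.974). The control call held without any 1 library and was lost with the spread taken over all 30 libraries (adjusted p = 0.292; 0.166 with the block). The call under QpE was lost in 12 of 20 alternatives, among them without any 1 of the QpE 6 h libraries or QpE 24 h replicate 1, 3 or 4 (adjusted p from 0.00959 to 0.0739).

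Nr1d2, encoding REV-ERB beta, moved the same way over those hours. It read 8.27, 9.63, 8.60, 7.54 and 12.3 FPKM in controls at 6 h and 13.6, 13.1, 14.5, 14.05 and 11.1 at 24 h. Under QpE it read 9.91, 9.71, 7.30, 8.53 and 8.02 at 6 h and 13.3, 13.5, 13.7, 16.02 and 8.83 at 24 h. In both arms replicate 5 at 24 h lay within the 6 h range. The rises were 0.49 ± 0.12 (adjusted p = 0.0322) and 0.52 ± 0.15 (adjusted p = 0.0448), and were lost in 12 and 15 of 20 alternatives. The call in controls ended without control 6 h replicate 1, 2, 3 or 4 or control 24 h replicate 1, 2, 3 or 4 (adjusted p from 0.0066 to 0.0768), and that under QpE without any 1 of the 10 libraries but QpE 24 h replicate 5 (0.00667 to 0.102).

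Dbp, the output factor, had the largest rise of the 10 genes from 6 h to 24 h in both arms. Controls read 16.01, 12.01, 8.48, 8.61 and 20.2 FPKM at 6 h and 34.6, 31.7, 45.0, 44.1 and 22.4 at 24 h, apart. QpE cultures read 11.6, 14.4, 7.43, 10.2 and 15.8 at 6 h and 35.2, 35.0, 41.3, 46.9 and 13.1 at 24 h, where replicate 5 alone lay within the 6 h range. The rises were 1.41 ± 0.26 (adjusted p = 0.00867) and 1.39 ± 0.33 (adjusted p = 0.0224), or 2.66-fold and 2.61-fold in FPKM + 1. The control call was lost in 1 of 20 alternatives, the replicate block (adjusted p = 0.0673). The call under QpE was lost in 7, among them without QpE 6 h replicate 3 or 4 or QpE 24 h replicate 1, 2 or 3 (adjusted p from 0.00179 to 0.0566). Replicate 5 of QpE at 24 h was thus the lowest of its group for Nr1d1, Nr1d2 and Dbp alike.

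At 12 days the same 3 genes varied more between replicates than between arms. Nr1d1 read 14.8, 17.9, 38.7, 31.9 and 15.02 FPKM in controls and 10.1, 17.2, 58.9, 49.0 and 30.04 under QpE. Nr1d2 read 8.71, 8.31, 13.8, 12.9 and 7.99 in controls and 5.95, 6.07, 15.9, 15.5 and 9.02 under QpE. Dbp read 20.9, 30.6, 50.3, 49.3 and 30.9 in controls and 16.7, 11.7, 55.4, 46.5 and 32.3 under QpE. Replicates 3 and 4 held the 2 highest values of each gene in each arm. The rows as a whole also varied by replicate. The second principal component (a main axis of variation) of all 18035 rows at 12 days held 19.2% of the variance. It read 39.6, 39.8, -17.9, -13.1 and 45.3 in controls and 17.6, 23.8, -56.7, -58.3 and -20.2 under QpE. The within-group SD of the 3 genes (log2 scale) was 0.345 to 0.619 in controls and 0.629 to 1.01 under QpE. Over all rows its median was 0.29 and 0.352. The differences between QpE and control were 0.32 ± 0.48, -0.06 ± 0.30 and -0.30 ± 0.43 for Nr1d1, Nr1d2 and Dbp (adjusted p = 0.754, 0.936 and 0.737), with 95% intervals from -1.25 to 1.38 over the 3 genes, so neither a 2-fold higher Nr1d1 nor a 2-fold lower Dbp lay outside its interval.

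The Arntl locus sum ran the other way under QpE: replicates 1 and 2, lowest for Nr1d1, Nr1d2 and Dbp, held its 2 highest values, 12.2 and 11.7 FPKM, and replicates 3 and 4 its 2 lowest. In controls it ran only from 8.98 to 9.75. The named transcripts of Arntl ran the same way as the 3 genes under QpE, lowest in replicates 1 and 2 (2.66 and 1.95 FPKM, against 4.56 to 6.996 in the other 3), so the inverse order is that of the locus sum alone. Npas2, which encodes a stand-in for CLOCK as partner of ARNTL and was below the filter, read 1.44, 1.12, 0.0172, 0.0 and 0.726 FPKM under QpE at 12 days, and at most 0.0691 in any other group. Nfil3, encoding the D-box repressor E4BP4, read 21.7, 26.01, 10.95, 8.98 and 16.6 there. Its log2 differences from the control of the same number were 0.63, 0.86, -0.27, -0.69 and 0.14. The controls did not run in the order of the QpE cultures for Nfil3. Bhlhe40, encoding the E-box repressor DEC1, was highest in replicates 3 and 4, at 83.4 and 77.6 FPKM in controls (29.8 to 33.1 in the other 3) and 130 and 111 under QpE (39.3 to 49.3). Npas2, Nfil3 and Bhlhe40 are shown here after their values were seen. Other genes of their lists are not shown by library, so these genes do not show how the lists as a whole ran. Summed adipocyte markers were lowest in replicates 3 and 4 as well, at 1163 and 1795 FPKM in controls (4360 to 5395 in the other 3) and 4460 and 3332 under QpE (6963 to 8547); their part in the spread of the clock genes was not tested.

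**Figure D4:**
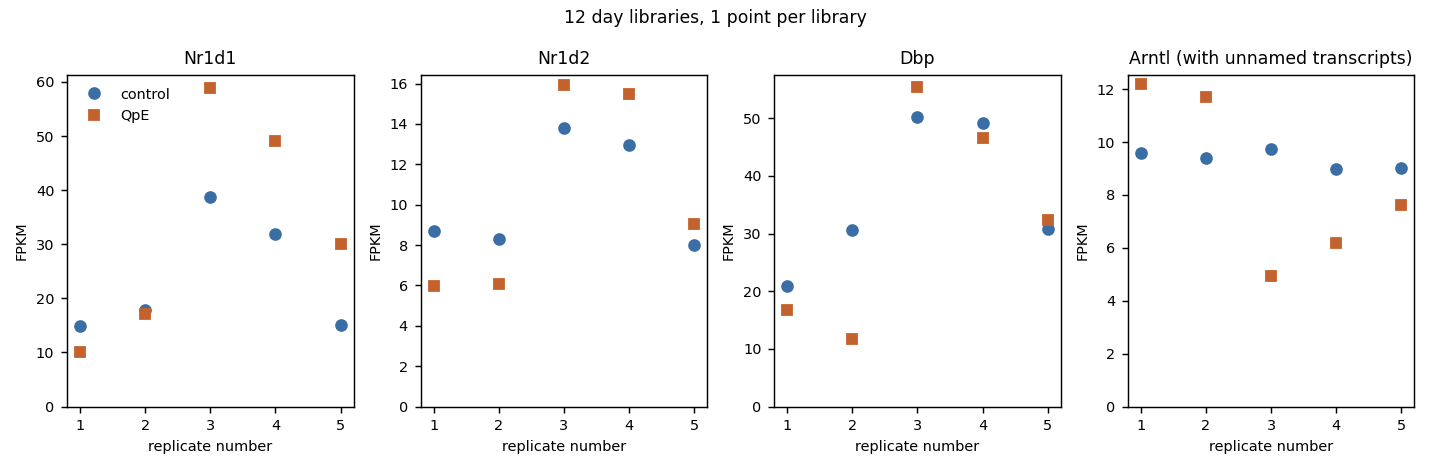
FPKM in the 10 libraries at 12 days by replicate number, for Nr1d1, Nr1d2, Dbp and the Arntl locus sum; circles are controls and squares QpE, 1 point per library, with axes from 0. Replicates 3 and 4 are highest in both arms for the first 3 genes, and lowest under QpE for Arntl.

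Across all 30 libraries, the deviation of each library from its group mean of log2(FPKM + 1) described how the genes varied together within groups. Pearson's r was 0.86 between Nr1d1 and Nr1d2, 0.78 between Nr1d1 and Dbp and 0.88 between Nr1d2 and Dbp. Over the 20 libraries at 6 h and 24 h these were 0.54, 0.63 and 0.84, and over the 10 at 12 days 0.96, 0.91 and 0.93. Arntl on named transcripts had r of 0.25, 0.18 and 0.06 with Nr1d1, Nr1d2 and Dbp, and on locus sums -0.56, -0.62 and -0.57. At 12 days these were 0.63, 0.65 and 0.69 on named transcripts and -0.80, -0.84 and -0.85 on locus sums. At 6 h and 24 h they were -0.001, -0.15 and -0.27 on named transcripts and -0.12, -0.26 and -0.25 on locus sums. The sign of r at 12 days thus depended on how transcripts were assigned to Arntl. Between Cry1 and Cry2 r was -0.04. The values of 1 library share its depth and scaling, and the sets of 10 and 20 libraries are descriptions with no test. These r are given for the 10 clock genes only, so they do not show whether other genes reach such values.

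**Figure D5:**
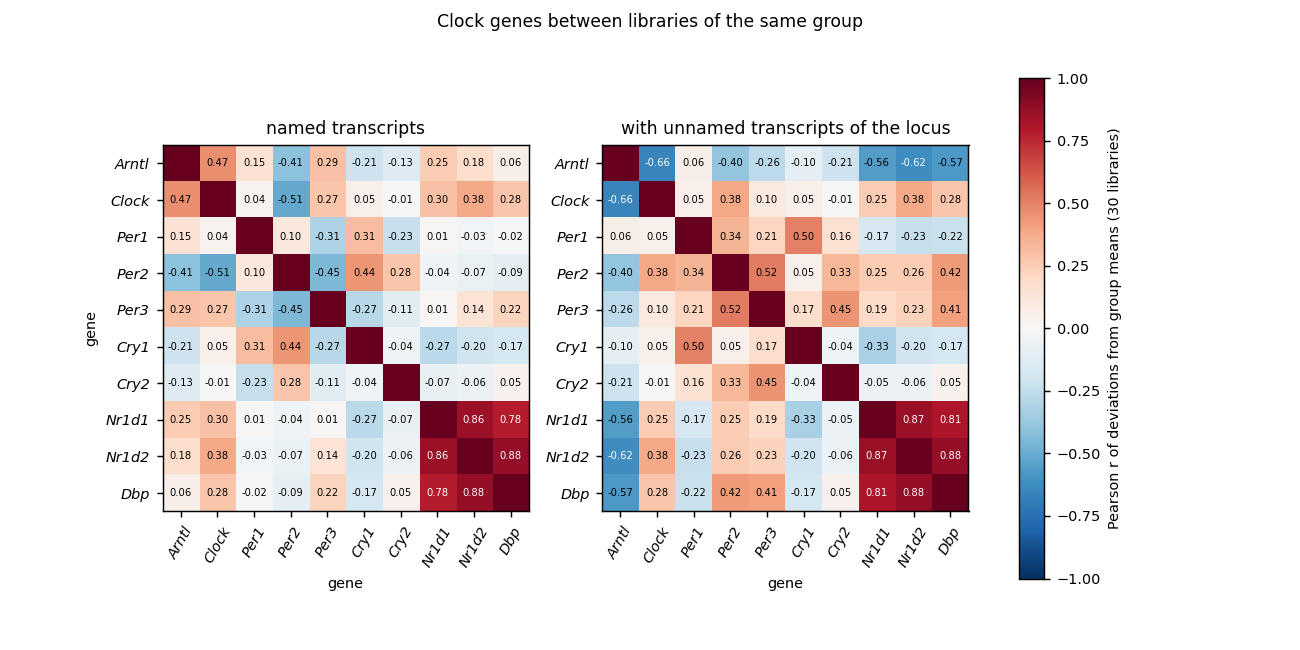
Pearson's r between the clock genes of deviations from group means over 30 libraries, on named transcripts (left) and with unnamed transcripts joined (right); red is positive and blue negative. Nr1d1, Nr1d2 and Dbp form a block of high r in both, and the Arntl row turns from weakly positive to negative against them when the locus sum is used.

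Genes of the loop beyond the 10, such as the ROR activators, DEC repressors and the kinases and ligase subunits that turn over PER and CRY, were described as a list of 16, of which 14 were tested (Npas2 and Rorb fell below the filter). For QpE at 12 days, where 4.86% of all rows passed, 1 rose, Rora, which encodes an activator of Arntl: 7.81 ± 1.10 FPKM in controls and 12.8 ± 1.74 under QpE (SD, n = 5), a difference of 0.65 ± 0.13 (adjusted p = 0.0309). The median over the 14 was 0.15, against -0.01 over all rows. None of the 14 passed between 6 h and 24 h in either arm under limma. From 24 h to 12 days 2 rose and 4 fell in controls, 6 of 14 against 20.5% of all rows, and 3 rose and 1 fell under QpE, 4 of 14 against 29.3%. Rora rose by 1.71 ± 0.13 under QpE (adjusted p = 3.16e-05).

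Of 8 genes known as clock outputs, 2 rose for QpE at 12 days and none fell, where 4.86% of all rows passed. Nampt, the rate-limiting enzyme of NAD salvage, was 35.2 ± 4.10 FPKM in controls and 74.1 ± 26.3 under QpE, a difference of 0.995 ± 0.21 (adjusted p = 0.0336), and Por, the electron donor of cytochromes P450, differed by 0.58 ± 0.14 (adjusted p = 0.0434). From 6 h to 24 h 3 rose and 2 fell in each arm, 5 of 8, where 12.4% of all rows passed in controls and 12.8% under QpE. In controls Hlf, a close relative of Dbp, rose by 0.88 ± 0.16 (adjusted p = 0.00663), Nfil3 fell by 0.66 on the log2 scale (adjusted p = 0.043) and Por fell by 0.55 (adjusted p = 0.0401). Under QpE Nampt rose by 0.65 ± 0.09 (adjusted p = 0.00187), Lpin1, a phosphatidate phosphatase, by 0.55 ± 0.15 (adjusted p = 0.042) and Wee1, a cell cycle kinase, by 0.52 ± 0.09 (adjusted p = 0.00486), and Nfil3 fell by 0.63 on the log2 scale (adjusted p = 0.025). From 24 h to 12 days 4 rose and 1 fell in controls (20.5% of all rows) and 5 rose and 1 fell under QpE (29.3%). Lpin1 rose by 1.80 ± 0.36 and 2.64 ± 0.35, and Nampt by 1.15 ± 0.09 and 2.002 ± 0.21. Por rose by 1.21 ± 0.08 in controls (adjusted p = 2.88e-05).

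Of 10 genes of signals that switch on Per genes, such as immediate early genes and glucocorticoid targets, none rose and 1 fell for QpE at 12 days, against 4.86% of all rows. This was Sgk1, a kinase gene of the glucocorticoid response, at -0.80 ± 0.17 (adjusted p = 0.033). At 12 days the median over the 10 genes was -0.30, against -0.01 over all rows. The groups did not overlap for 6 of the 10, against 10.4% of all rows in either direction. None of the 10 passed at 6 h or 24 h under limma, and their median at those times was 0.04 and -0.07. Between 6 h and 24 h 1 rose and 2 fell in each arm, 3 of 10 against 12.4% of all rows in controls and 12.8% under QpE. The largest was Fkbp5, a glucocorticoid target, which fell by 0.57 on the log2 scale in controls (SE 0.10, adjusted p = 0.00574). From 24 h to 12 days 2 rose and 4 fell in controls (20.5% of all rows), and 1 rose and 2 fell under QpE (29.3%).

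Some clock genes share exon bases with a gene on the opposite strand. The libraries were directional, but the sources used here do not say whether counting used strand. Nr1d1 shares 263 bases with Thra, the thyroid hormone receptor alpha, which was measured at 61.2 to 128 FPKM, and Dbp shares 539 bases with Sphk2, a sphingosine kinase, at 5.55 to 15.02 FPKM. Thra rose by 0.46 ± 0.12 from 6 h to 24 h under QpE (adjusted p = 0.0341), as Nr1d1 did, and did not pass in controls. It fell by 0.56 on the log2 scale from 24 h to 12 days under QpE (adjusted p = 0.00689). At 12 days it read 61.2, 64.3, 75.1, 71.7 and 72.8 FPKM under QpE, a far narrower range than that of Nr1d1. Sphk2 passed in 1 of the comparisons, with a rise of 0.53 ± 0.13 from 24 h to 12 days under QpE (adjusted p = 0.0128). The other 2 overlaps, of Cry2 with D930015M05Rik (295 bases) and Arntl with Gm45355 (33 bases), are with genes below 1 FPKM in every library.

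The named genes whose log2 levels ran most like 4 of the members over the 30 libraries were taken by Pearson's r, as a description over libraries that share depth, group and scaling. For Nr1d1 these were Aff4 (r = 0.91), Eif3e (0.90) and Ftl1 (0.90). For Dbp they were Ephx1 (0.89), Mapk3 (0.88) and Nicn1 (0.88), for Per2 Epb41l4a (0.74), Kansl2-ps (0.69) and A230060F14Rik (0.67), and for Arntl on named transcripts Rb1cc1 (0.61), Cnot1 (0.60) and Gm32899 (0.59).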

How the data were processed

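The authors deposited FPKM per transcript in 1 table of 30 libraries; the tools HISAT, HISAT2 and StringTie and the build GRCm38 come from the submitters' processing notes, which give no versions. Per the labels' protocols, directional poly(A) libraries were sequenced as 75 bp pairs in 1 pool. In 10 libraries 11 deposited values lay just below 0 (lowest -7e-05), in columns otherwise FPKM, and were set to 0.

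Named transcripts were summed per gene, and unnamed ones per locus as rows of their own; joining them to the only named gene of their locus was an alternative. Rows with at least 1 FPKM in at least 5 of 30 libraries (18035 of 62266, 12744 of them named) were tested as log2(FPKM + 1) with limma 3.58.1 in R 4.3.3 (mean-variance trend, libraries of the compared groups only, two-sided, Benjamini-Hochberg over all rows, threshold 0.05). No count model was applied, since deposited FPKM are scaled values. Differences on this scale understate changes of low genes. The deposited transcripts matched GENCODE M21 ends for 97.8% of Ensembl transcripts. Fits were tested on simulated data.

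All 10 members are named. From other lists only called genes are named, at most 4 per comparison by size of difference, with genes sharing exon bases with a member and the 3 genes most like Arntl, Per2, Nr1d1 and Dbp. The values of Npas2, Nfil3 and Bhlhe40 by library at 12 days lie outside this rule and were chosen after they were seen. 1 gene that the rule takes is not reported here. The members and lists were chosen with earlier results of these data known. Culture replicates are numbered 1 to 5. Nothing says that a number marks a shared batch, and the labels do not set replicates 3 and 4 apart from 1, 2 and 5. That split matches the summed adipocyte markers at 12 days given above. Alternatives covered the spread model, replicate block, pseudocount 0.1, filter, scaling, transcript choice, each library left out, and replicates 1, 2 and 5 or 3 and 4 alone.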

Additional observations from a re-analysis of the deposited data

Results flagged for a closer look

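Of 60 gene and group combinations of 5 libraries, 1 held a value far from the others. Cry1 in control replicate 1 at 12 days read 5.34 FPKM, while the other 4 controls lay between 6.13 and 6.22; its gap to the nearest was 0.893 of the group's range, above the 95% critical value of Dixon's test for 5 values. Chance flags about 1 in 20 groups. Without that library QpE against control for Cry1 at 12 days was 0.53 (adjusted p = 0.099).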

How the results depend on the processing

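The number of clock genes called was recomputed under each alternative. For QpE at 12 days, 1 in the reported fit, it was 2 with all 30 libraries in 1 fit, with or without the replicate block (Clock and Cry1), 3 with unnamed transcripts joined, and 0 with the replicate block, a pseudocount of 0.1, no filter, TPM scaling, the most abundant transcript only, replicates 1, 2 and 5 only, or replicates 3 and 4 only. For 6 h to 24 h in controls, 4 in the reported fit, it was 2 with all 30 libraries, with the replicate block, and with both. There it was 3 with no filter and 5 with unnamed transcripts joined, which added Per1. Under QpE, 5 in the reported fit, it was 2 with all 30 libraries, 1 with the replicate block, 3 with both and 1 with no filter. It was 4 with TPM scaling, 3 with the most abundant transcript only and 6 with unnamed transcripts joined, which added Per1. For 24 h to 12 days in controls, 2 in the reported fit, it was 1 with the replicate block and 3 with median-ratio scaling. It was 4 with unnamed transcripts joined and 0 with replicates 3 and 4 only. With replicates 1, 2 and 5 only it was 2, but these were Cry2, higher, and Nr1d2, lower. Under QpE, 3 in the reported fit, it was 4 with unnamed transcripts joined and 0 with replicates 3 and 4 only. It was 2 with the replicate block, the most abundant transcript only, or replicates 1, 2 and 5 only. Leaving out 1 library at a time gave 0 to 1 for QpE at 12 days, 3 to 4 and 1 to 4 for 6 h to 24 h in controls and under QpE, 2 to 2 and 2 to 3 for 24 h to 12 days, and 0 to 0 for QpE at 6 h and 24 h and both interactions. Over the 90 pairs of a gene and a comparison, interactions included, no gene that passed in the reported fit changed sign in any alternative. Of the 90 pairs 41 changed sign in at least 1 alternative, 13 of them with unnamed transcripts joined. In 1 of these the alternative passed: Arntl from 24 h to 12 days in controls gave 0.50 with unnamed transcripts joined. Among those that passed in neither, joining turned QpE at 12 days from 0.80 to -0.19 for Arntl and from -0.25 to 0.51 for Per2, and 6 h to 24 h in controls from 0.03 to -0.53 for Per2; the most abundant transcript alone turned QpE at 12 days from 0.22 to -0.56 for Per1. Alternatives with fewer libraries have fewer degrees of freedom by construction; for the others the cause was not tested. An alternative filter within the compared libraries was added after seeing the data.

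Same-numbered libraries deviated together only weakly: for QpE against control at 12 days r was 0.109, 0.0837, 0.181, 0.209 and 0.106 for replicates 1 to 5, so the numbers were not taken as pairs, and not every library correlated best with its own number. With the replicate block as an alternative, all rows called for QpE at 12 days went from 877 to 680. All rows called there were 2905 with all 30 libraries in 1 fit, 3237 with the block in that fit, 364 with no filter, 376 with the most abundant transcript only, 1787 with unnamed transcripts joined, 73 with replicates 1, 2 and 5 and 0 with replicates 3 and 4, and 54 to 761 with 1 library left out. The share of those calls that were higher was 43.8%, 25.4% with TPM scaling, 54.0% with the replicate block and 64.4% with replicates 1, 2 and 5. For 24 h to 12 days it went from 39.6% to 52.5% in controls and from 40.2% to 51.8% under QpE with median-ratio scaling, and for 6 h to 24 h under QpE from 51.3% to 32.0% with TPM scaling. About 9500000 to 17500000 fragments per library and 5 libraries per group limit the precision of genes near 1 FPKM, such as Per2.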
